A study of Mus musculus with 6 samples.

Results

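The cytosolic ribosomal proteins, the proteins of the small and large subunits that build the ribosome around its RNAs, were followed in the mouse aorta after a high fat diet. A gene was counted as a member when a probe set with 1 gene symbol carried a symbol beginning with Rpl or Rps and a digit, or was Rplp0, Rplp1, Rplp2 or Rpsa, with S6 kinases (Rps6k) and pseudogenes left out. This gave 48 genes with 100 probe sets, out of 12393 genes that had a probe set with 1 symbol. There were 26 large subunit symbols (Rpl) and 22 small subunit symbols (Rps). Each gene was represented by its probe set of highest mean signal over the 6 arrays.

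The study set 3 Affymetrix arrays of high fat fed mice against 3 of chow fed mice, and each array carried the pooled RNA of 3 aortas, cleaned of adventitia and fat (n = 3 pools per diet). All animals were C57BL/6J, and they were labelled male except for high fat replicate 1, whose label gave no sex. High fat feeding lasted 16 to 18 weeks and began at 10 weeks of age for replicates 2 and 3, and replicate 1 was labelled as aged 16 to 20 weeks. Chow replicates 2 and 3 were 26 to 28 weeks old, and chow replicate 1 had no stated age, so a match in age is known from the labels for replicates 2 and 3 alone. All mice were labelled as this inbred strain with no altered gene named. Since RNA was pooled, p-values rest on how far the pools of a diet differ, and single animals were not measured. Signals were scaled to the same trimmed mean of 150.05 on every array, with medians of 58.4 to 66.6. High fat replicate 2 and chow replicate 1 stood apart on the further probe sets of the ribosomal protein genes, those not used to represent a gene. Values without both arrays are given below.

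Ribosomal proteins are made in near-equal amounts, because each ribosome holds a copy of nearly every one of them. Their mRNAs are abundant in growing cells and share a short pyrimidine tract at the cap, the terminal oligopyrimidine (TOP) motif, through which the kinase mTOR and the RNA-binding protein Larp1 set how much of the mRNA is translated. Several members have a duplicate gene, or paralog, that is used in particular tissues, and Rpl3l, which replaces Rpl3 in heart and skeletal muscle, is an example. In vessels, as in other tissues, some of these genes also serve as reference genes for RNA measurements.

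The start-site sequences show where runs of pyrimidines, the letters of the TOP motif, lay near the annotated start. RefSeq start sites (build GRCm38.p6) were given for 42 of the 48 genes, at 50 starts. Windows of 30 bases are printed 5′ to 3′, 15 bases on each side of the annotated start, and capitals mark the longest unbroken run of C and T where it reached 8 bases. The first 6 genes have such a run:
Rpl35, chr2:39005117-39005146, minus strand: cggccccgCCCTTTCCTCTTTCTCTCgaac
Rpl7a, chr2:26910792-26910821, plus strand: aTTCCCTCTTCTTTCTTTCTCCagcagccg
Rplp2, chr7:141447636-141447665, plus strand: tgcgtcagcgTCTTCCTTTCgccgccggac
Rps6, chr4:86857353-86857382, minus strand: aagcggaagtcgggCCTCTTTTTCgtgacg
Rps27, chr3:90213634-90213663, minus strand: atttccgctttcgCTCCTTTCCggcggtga
Rpl22l1, chr3:28805493-28805522, plus strand: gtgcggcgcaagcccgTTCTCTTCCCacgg
Rplp0, chr5:115559452-115559481, plus strand: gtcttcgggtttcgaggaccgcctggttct
Rps4x, chrX:102189377-102189406, minus strand: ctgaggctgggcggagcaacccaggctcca
Rpl3l, chr17:24727811-24727840, plus strand: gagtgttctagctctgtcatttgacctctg

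A run of at least 8 pyrimidines lay in the window of 19 of the 50 member starts (38%), against 12% of 32851 starts of all genes and 12% of 75 starts of mitochondrial ribosomal proteins. The letters CTTTC on the sense strand were in 22% of the member windows and 4.05% of all windows, and on the antisense strand in 2% and 3.6%. CTTTC can lie within a pyrimidine run, so these shares are not separate. Within 250 bases before and 50 after the start, the letters CCGGAAG, on either strand, occurred at 42% of member starts, 34.7% of mitochondrial ribosomal protein starts and 8.86% of all starts. The letters TATAAA between 40 and 16 bases before the start, on either strand, occurred at 2% of member starts and 2.48% of all. These are letter matches around annotated starts, which the arrays did not measure. A pyrimidine run was counted wherever it lay in the window, also wholly before the start. The 38% is therefore not a share of TOP motifs, and a window without a run is not shown to lack the motif.

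Signals of the ribosomal protein genes differed little between the diets, and what difference there was lay mostly below 0. Of the 44 genes that passed the filter on low signal, 36 had a lower mean on high fat diet and 8 a higher one, with a median log2 fold change of -0.09, a fold of 0.94. Over all 8326 genes kept at 1 probe set each the median was 0.01 and 49.1% had a lower mean, and over all probe sets 51.8% had one. Genes of like signal lay nearer to the members: the 513 genes with a mean signal above 1000 had a median of -0.04 with 58.7% lower, against -0.09 and 84.8% (28 of 33) for the ribosomal protein genes above that signal. The direction of the median was the same under the other scalings, at -0.05 with quantile normalization and -0.13 with equal medians, where the median of all probe sets was -0.02 and -0.05. None of the 44 passed an adjusted p of 0.05 in limma, where 0.0737% of all probe sets did (0.0368% higher and 0.0368% lower). None had an unadjusted p under 0.05, where 7.03% did (3.92% higher and 3.11% lower). The smallest unadjusted p was 0.0679, and adjusted p-values lay between 0.74 and 0.991. In bulk tissue, fewer cells of a type that is rich in ribosomes and less ribosomal protein mRNA per cell cannot be told apart.

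**Figure D1:**
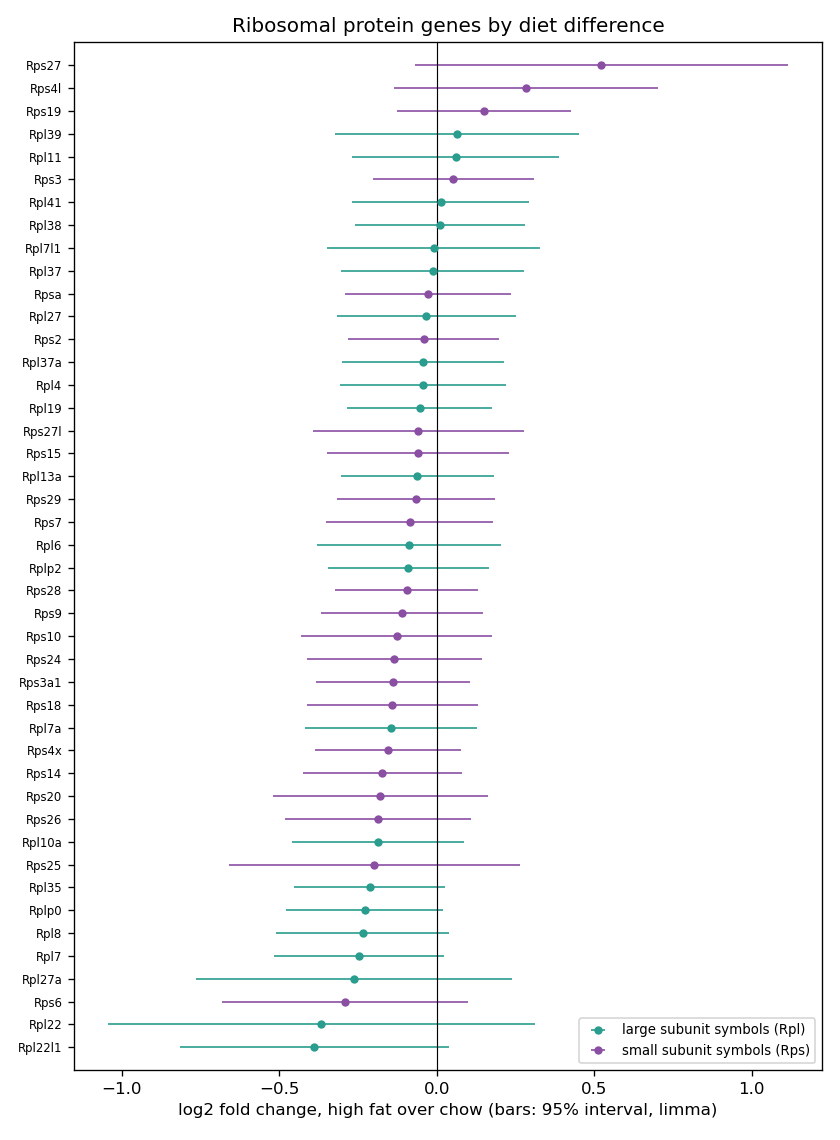
The log2 fold change of each of the 44 tested ribosomal protein genes, high fat over chow, is drawn as a point with its 95% interval from limma (n = 3 pools per diet), large subunit symbols in green and small subunit symbols in purple. All intervals cross 0, and 36 of the 44 points lie left of it.

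The samples were labelled as aorta, and the markers listed are of cell types rather than of that tissue. Markers of smooth muscle and of other cells had signal. No marker was listed at 0 on any array, which does not show presence without detection calls, since Myh4 had 1.0 in high fat replicate 3. Smooth muscle markers, 8 of 8 measured, summed to signals of 22427 to 23943 on high fat diet and 21472 to 27316 on chow, and 6 had lower means. Brown adipocyte markers summed to 10462 to 12665 against 6746 to 8936 (7 of 7 with higher means), and macrophage markers to 2483 to 3828 against 1867 to 2319 (7 of 8 higher). Endothelial markers summed to 1636 to 1908 against 1458 to 1559 (7 of 8 higher). Those 3 sums did not overlap between the diets. Fibroblast markers summed to 9089 to 9694 against 9550 to 10428, and lymphocyte markers, 7 of 9 measured, to 310 to 355 against 284 to 326. White adipocyte markers, 5 of 7 measured, summed to 6847 to 7196 against 5532 to 7834. Among these Retn had a lower mean (216.9 against 464, adjusted p = 0.0435, limma). Adipoq, Fabp4, Lipe and Lep had higher means (78.1 against 17.3 for Lep). Cardiac muscle markers varied most between pools, at 898 to 6939 against 822 to 3452, and skeletal muscle markers summed to 303 to 604 against 384 to 978. Erythroid markers, 2 of 3 measured, summed to 107 to 214 against 238 to 728 without overlap. This sum was mostly Alas2, with means of 156.5 and 407.1, while Hba-a1 had low signals of 18.4 and 17.7. Nerve markers, 3 of 5 measured and all 3 with higher means, summed to 289 to 444 against 202 to 269, again without overlap. The part of these cells in the shift of the ribosomal protein genes was not tested.

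For 34 of the 44 genes the 95% interval lay within a log2 fold change of 0.5 in either direction, and for 42 within 1. Rpl22 and Rps27 were the exceptions to the wider limit, with intervals from -1.04 to 0.31 and from -0.07 to 1.11. Within 0.25 lay 0 of the 44 intervals, so a change of that size in at least 1 direction was not excluded for any gene. Direction was less firm for single genes, since 17 of the 44 changed sign when 1 array was left out and 38 changed sign or moved by over 1.5 times. The 33 genes with a mean signal above 1000 had log2 fold changes between -0.25 and 0.15, and a median within-diet SD of 0.13 on the log2 scale, against 0.16 for all genes above that signal. Large and small subunit genes had medians of -0.07 and -0.10, each with 18 of 22 lower. A high signal of a probe set does not rank genes by abundance, since probe sets bind with different strength.

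By array, the median level of the ribosomal protein genes was shifted by small amounts. The median deviation of the 44 genes from their own mean over 6 arrays, on the log2 scale, was -0.07 (replicate 1), -0.08 (replicate 2) and 0.0049 (replicate 3) on high fat diet. It was -0.01, 0.09 and 0.05 for the chow pools in the same order of numbers. High fat replicate 3 lay above chow replicate 1, so the pools of the diets overlapped. The highest of the 6 signals fell on a chow array for 36 of the 44 genes, 18 of them on chow replicate 2. The lowest fell on a high fat array for 29 genes, 14 of them on high fat replicate 2. Such counts were not made over all genes or genes of like signal, so they are not shown to be particular to the members. Chow replicate 1 was the highest array for 8 genes and the lowest for 10, so the genes did not all move together there. For all 513 genes with a mean signal above 1000, the medians were -0.02, -0.01 and 0.02 on high fat diet. On chow they were -0.08, 0.08 and 0.04, so differences among the chow pools were not particular to the ribosomal protein genes.

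**Figure D2:**
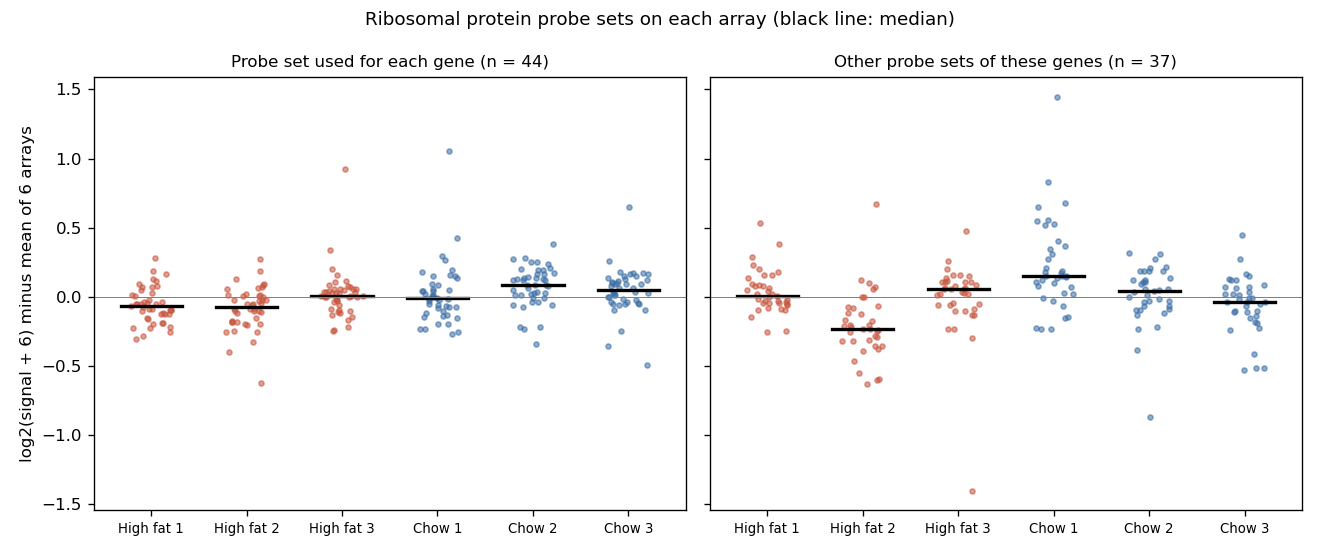
Each point is a probe set, placed by its log2(signal + 6) minus its mean over the 6 arrays, with high fat arrays in red, chow arrays in blue and the median as a black line. In the left panel (44 genes) the medians span -0.08 to 0.09, and in the right panel (37 other probe sets of these genes) they span -0.24 in high fat replicate 2 to 0.15 in chow replicate 1.

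Among large subunit proteins, the stalk that recruits elongation factors to the ribosome is represented by Rplp0, its base, and Rplp2, a stalk tip protein. Rplp0 had signals of 2447, 2503 and 2436 on high fat diet and 3200, 2693 and 2791 on chow. All chow pools lay above all high fat pools, with a log2 fold change of -0.23 ± 0.11 (SE, unadjusted p = 0.0683, adjusted p = 0.74, limma), which did not pass. Rplp2 had 3468, 3038 and 3096 against 3771, 3202 and 3259, and the diets overlapped (-0.09, adjusted p = 0.894). Rplp1, the partner of Rplp2, had no probe set with 1 symbol.

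Rpl7 and Rpl35, the latter at the mouth of the tunnel through which the new protein leaves, also had non-overlapping pools. For Rpl7 the signals were 2325, 2157 and 2263 on high fat diet and 3008, 2683 and 2360 on chow (log2 fold change -0.25 ± 0.12, adjusted p = 0.74, and -0.16 without chow replicate 1). For Rpl35 they were 2512, 2608 and 2686 against 2964, 3241 and 2857 (-0.21 ± 0.11, adjusted p = 0.744). In the small subunit, Rps4x, an X-linked protein, had 2926, 3122 and 2972 against 3285, 3548 and 3225 (-0.16 ± 0.11, adjusted p = 0.805). These 3 and Rplp0 were the 4 members (9.09%) whose high fat pools all lay below chow, where 6.08% of all probe sets did so, and no member lay wholly above, where 6.26% of all did. All 4 had a mean signal above 1000. At that signal 4 of 33 members lay wholly below chow, beside 50 of all 513 genes, and 37 of the 513 lay wholly above.

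Rpl8, a protein close to the catalytic centre of the large subunit, had 1911, 1869 and 2149 on high fat diet and 2378, 2543 and 2076 on chow. The pools overlapped through high fat replicate 3 and chow replicate 3 (-0.24 ± 0.12, adjusted p = 0.748). Rpl10a, of the stalk near the exit site for transfer RNA, had means of 2544 ± 197 and 2905 ± 334 (SD), and Rpl4, which lines the exit tunnel, had 3744 ± 173 and 3879 ± 473. Rpl11, which also binds and restrains Mdm2 when ribosome assembly fails, had 1275, 1469 and 1883 against 1495, 1449 and 1439. Its log2 fold change of 0.06 (adjusted p = 0.952) became -0.09 without high fat replicate 3, so that it has no settled direction. Rpl38, which favours translation of certain Hox mRNAs in development, had 4486 ± 176 and 4478 ± 605, and Rpl41, a very short basic peptide, had 6488 ± 499 and 6471 ± 941. Both had log2 fold changes of 0.01, with intervals from -0.26 to 0.28 and from -0.27 to 0.29, and changed sign with single arrays left out.

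Rps6, the substrate of the S6 kinases, had signals of 182, 196 and 237.8 on high fat diet and 252.8, 297 and 210.9 on chow. Chow replicate 3 lay below high fat replicate 3, and the difference did not pass (-0.29 ± 0.18, adjusted p = 0.785). It was -0.17 without chow replicate 2. Rps6 is also named by probe sets that list a pseudogene as well, and these were not used for it. Rps19, mutated in Diamond-Blackfan anaemia, had 1886, 1696 and 1749 against 1796, 1446 and 1576. It was among the 8 members with a higher mean on high fat diet (0.15 ± 0.13, adjusted p = 0.843), and its pools overlapped. Leaving out chow replicate 2 gave 0.08, and leaving out chow replicate 1 gave 0.23.

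Rps3, at the site where mRNA enters, had 3396 ± 108 on high fat diet and 3287 ± 347 on chow. Rpsa, which is also known as a laminin receptor, had 3006 ± 306 and 3060 ± 200. Rps14 had 3812 ± 193 and 4310 ± 442, Rps2 had 4004 ± 236 and 4124 ± 295, and Rps29 had 4511 ± 193 and 4737 ± 506. All 5 intervals included 0, and the difference farthest from 0 was that of Rps14 at -0.17 (interval -0.42 to 0.08). Rpl13a and Rps18, often used as reference genes, had log2 fold changes of -0.06 (interval -0.31 to 0.18) and -0.14 (-0.41 to 0.13).

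**Figure D3:**
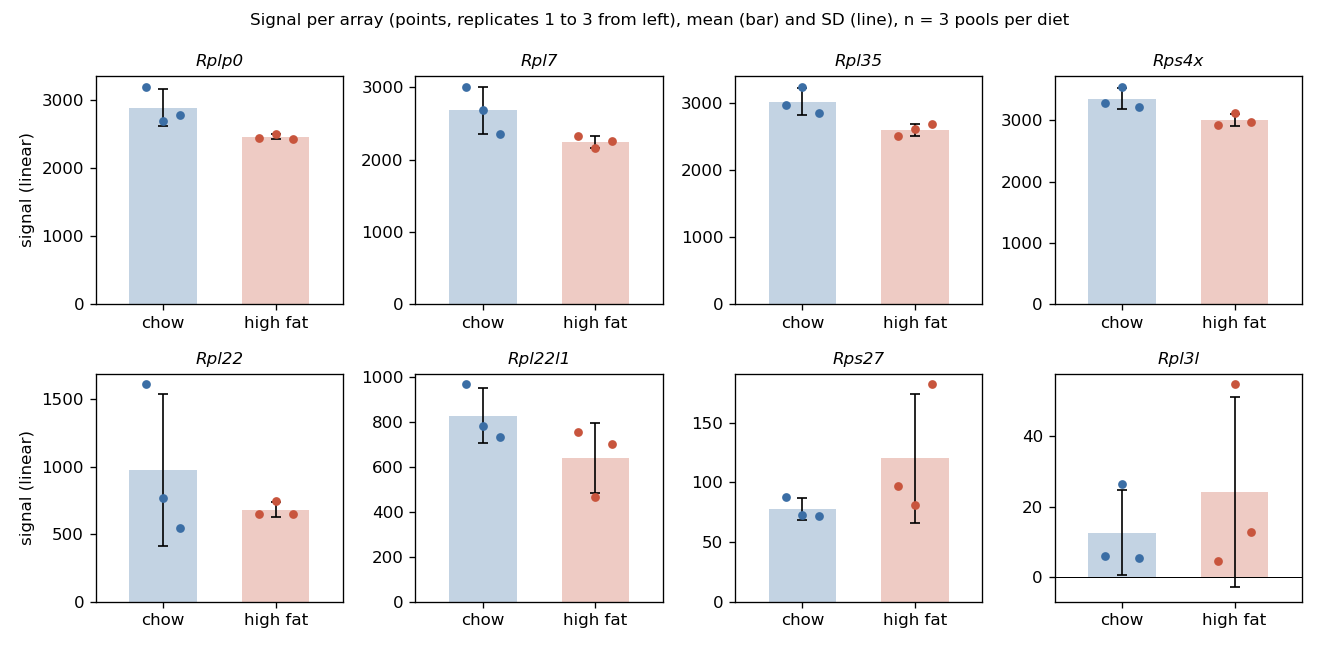
Linear signals of 8 ribosomal protein genes are shown per array (points, replicates 1 to 3 from left), with the mean (bar) and SD (line) of 3 pools per diet. In the top row (Rplp0, Rpl7, Rpl35, Rps4x) the high fat pools lie below the chow pools, and in the bottom row 1 pool stands apart in Rpl22 (1612, chow), Rps27 (182.2, high fat) and Rpl3l (54.8, high fat).

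Paralogs and the genes they resemble included those with single pools that stood apart. Rpl22l1 had 754.8, 464.4 and 703.4 on high fat diet and 968.4, 782.8 and 735.7 on chow, overlapping through high fat replicate 1 and chow replicate 3. Its log2 fold change of -0.39 ± 0.19 did not pass (adjusted p = 0.742) and was -0.17 without high fat replicate 2. Rpl22 had 646.7, 745.3 and 652.9 against 1612, 767.1 and 547.8, so that chow replicate 1 stood above the other 5 arrays (-0.37 ± 0.31, adjusted p = 0.844). The log2 fold change was 0.07 without chow replicate 1 and -0.70 without chow replicate 3, so that Rpl22 has no settled direction. A further Rpl22 probe set, on which the arrays lay between 165.1 and 225.2, had 225.2 in chow replicate 1 and a log2 fold change of -0.05. The high value of chow replicate 1 was thus seen on 1 of 2 probe sets.

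Rps27 had 96.8, 81.4 and 182.2 on high fat diet and 88, 72.4 and 71.5 on chow. High fat replicate 3 stood apart, and the log2 fold change of 0.52 ± 0.27 (adjusted p = 0.745) was 0.19 without it. Its paralog Rps27l, which the tumour suppressor p53 can induce, had 908.8, 990.3 and 979 against 811.8, 1166 and 1053, a log2 fold change of -0.06 (interval -0.39 to 0.28). Rps4l, a paralog of Rps4x, had 97.1, 90.3 and 76.3 against 81.3, 66.9 and 65.3, with overlap through high fat replicate 3 and chow replicate 1 (0.28 ± 0.19, adjusted p = 0.802). Rpl7l1, which resembles Rpl7 and acts in ribosome assembly, had log2 fold changes of -0.01 and 0.56 on its 2 probe sets, neither past the threshold (adjusted p = 0.991 and 0.726). Rpl39, at the exit tunnel, had 161 ± 29.3 and 152.1 ± 8.7 (0.06, adjusted p = 0.954), and its fold change was -0.05 without high fat replicate 2.

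The 4 members whose mean on the log scale fell short of the filter (a signal of 40.7) were Rpl12, Rpl14, Rpl39l and Rpl3l, and they were not tested. The nearest member outside was Rpl12, with a mean signal of 40.8 on the linear scale, and the nearest inside was Rps25, with 68.8. Rpl3l had signals of 4.7, 54.8 and 12.8 on high fat diet and 6.2, 26.5 and 5.4 on chow, in the order of the replicate numbers. The summed signal of 9 cardiac muscle markers on the same arrays was 898, 6939 and 5349 on high fat diet and 2457, 3452 and 822 on chow. Both were highest in high fat replicate 2 and next in high fat replicate 3 and chow replicate 2, in different order. Chow replicate 1, with a marker sum of 2457, had 6.2 for Rpl3l, near the 4.7 of high fat replicate 1 with a sum of 898. Eef1a2, the muscle and nerve form of an elongation factor, had 141.7, 635.4 and 302.2 against 159.8, 228.8 and 184.9, again highest in high fat replicate 2. A link of Rpl3l or Eef1a2 to cardiac muscle in the pools was not tested. Rpl39l, a paralog used in the testis, lay between 0.7 and 17.8. Rpl12 lay between 5.4 and 58.3 and Rpl14 between 26.9 and 38.5 on their probe sets with 1 symbol, and further probe sets that list other symbols beside them were not used.

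The chosen probe set was not the only view of these genes. Of 19 members with several probe sets past the filter, 15 had lower means on high fat diet on all of them and 1 had higher means on all. In 3 the signs differed, and these were Rpl13a, Rpl7l1 and Rps29. Counting the chosen ones, 69 of the 81 probe sets of members that passed the filter had a lower mean, and the smallest unadjusted p among them was 0.0555. Another 102 probe sets listed several symbols, a ribosomal protein among them, and no gene was named from these. They covered 28 ribosomal protein symbols that no probe set named alone. Of the 90 past the filter, 77 had a lower mean, with a median of -0.12, and none passed the adjustment in limma. At an unadjusted p under 0.05, 4 were lower (4.44%, where 3.11% of all probe sets were) and 1 was higher (1.11%, where 3.92% were). Without overlap, 12 lay below chow (13.3%, against 6.08% of all) and 2 above (2.22%, against 6.26%).

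The 37 further probe sets of members showed arrays that stood apart. Their median deviation was -0.24 in high fat replicate 2 and 0.15 in chow replicate 1, and between -0.04 and 0.05 on the other 4 arrays. High fat replicate 2 was the lowest array for 23 of the 37 and chow replicate 1 the highest for 20, which was not counted over all probe sets. Of the dimmer Rps10 probe sets, 1 had 575.3 in chow replicate 1 and 153.7 to 202.9 elsewhere, while the probe set used for Rps10 lay between 2109 and 2910. For Rpl27 the used probe set had a log2 fold change of -0.03, and the 2 others had -0.36 and -0.40 with 835.9 and 538.7 in chow replicate 1. The actin control's 3′ over 5′ signal, a sign of RNA integrity, was 1.94 in high fat replicate 2 and 1.37 in chow replicate 1, within a range of 1.27 to 1.94. The same ratio of the Gapdh control had another order, with 1.07 in high fat replicate 2, the lowest value of 0.89 in chow replicate 1 and the highest of 1.38 in chow replicate 2, the array with 18 of the 44 highest member signals. The part of RNA integrity in these values was not tested. Without both arrays, a setting added once the data had been seen, the median of the members was -0.10 and none passed the adjustment. In that fit 2 had an unadjusted p under 0.05 (limma), Rps27, which was higher (0.84), and Rps14, which was lower (-0.27). The share of all probe sets at that p was not counted there.

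Genes that work with the ribosome were followed as lists by function. Other mRNAs of the TOP class, such as those of elongation factors, had lower means for all 14 measured genes, with a median log2 fold change of -0.10. Npm1, a nucleolar chaperone that also serves ribosome assembly, had 686.5, 601.5 and 707.6 on high fat diet and 1023, 944.6 and 913.4 on chow. The pools did not overlap, and the log2 fold change of -0.53 ± 0.13 did not pass (unadjusted p = 0.00201, adjusted p = 0.402). Eef1b2, an exchange factor for elongation factor 1, had 877.9 ± 172.1 and 1114 ± 282 (-0.33, adjusted p = 0.776), and Eef1a1 and Eef2 themselves had -0.06 and -0.02. The list shares members with the initiation, elongation and biogenesis lists, so that these are not independent.

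Initiation factors had lower means for 22 of 32 genes (median -0.06), and Eif3m and Eif1b had the smallest p, with -0.38 and -0.28 (adjusted p = 0.721 and 0.745). Elongation and termination factors had lower means for 10 of 11 (median -0.07). Among them Eef2k, the kinase that inhibits Eef2, had -0.41 and Gspt1, a release factor, had -0.36 (adjusted p = 0.679 and 0.676). Ribosome biogenesis factors divided, with 33 of 56 lower (median -0.03), and Efl1, which helps release a factor from new large subunits, had -0.62 (adjusted p = 0.549). Factors for nascent chains and their targeting to the endoplasmic reticulum had lower means for 12 of 15 (median -0.13), and Ssr1 had -0.28 and Hspa14 -0.32 (adjusted p = 0.707 and 0.814). Regulators of RNA polymerases I and III had 4 of 10 lower (median 0.06), with Polr3k at 0.28 and Gtf3c1 at -0.19 (adjusted p = 0.862 and 0.867). In these lists no gene passed the adjusted threshold in either direction, and 4 of 127 had an unadjusted p under 0.05, Npm1, Efl1, Gspt1 and Eef2k. All 4 were lower, a share of 3.15%, where 2.7% of all 8326 genes were lower at that p. None of the 127 was higher at that p, where 4.28% of all genes were.

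The mTOR pathway and translation control list had higher means for 16 of 23 genes, with a median of 0.19. Deptor, a protein that binds and inhibits mTOR, had 630.6, 491.9 and 478.3 on high fat diet and 325, 242.2 and 339.8 on chow (0.81 ± 0.18, adjusted p = 0.299). Mtor itself had 322.2, 341.9 and 403 against 263.1, 259.4 and 276.3 (0.40 ± 0.15, adjusted p = 0.594). Pdcd4, an inhibitor of the helicase Eif4a1, had 349.9, 281.8 and 304.6 against 506.1, 414.6 and 402.2 (-0.49 ± 0.16, adjusted p = 0.535). The pools did not overlap for any of the 3, and none passed. Of the 23 genes, 4 lay wholly above chow and 1 wholly below, where 6.79% and 5.78% of all genes did. At an unadjusted p under 0.05 (limma), 2 were higher and 1 lower, where 4.28% and 2.7% of all genes were. The list holds Mtor as well as inhibitors such as Deptor, so its median gives no direction for the pathway. Larp1, at 296.3 ± 54.6 and 276.3 ± 49.3, and Eif4ebp1, at 594.6 ± 72.6 and 566 ± 54.4, differed by less than their SD. Of the genes on nucleolar stress and p53, 3 of 6 were lower (median 0.05), with Mdm4 at -0.49 and Ccng1 at 0.35 (adjusted p = 0.744 and 0.777). Fau, which encodes a small subunit protein under another name, had 3290 ± 328 and 3047 ± 542 (0.12, adjusted p = 0.884).

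**Figure D4:**
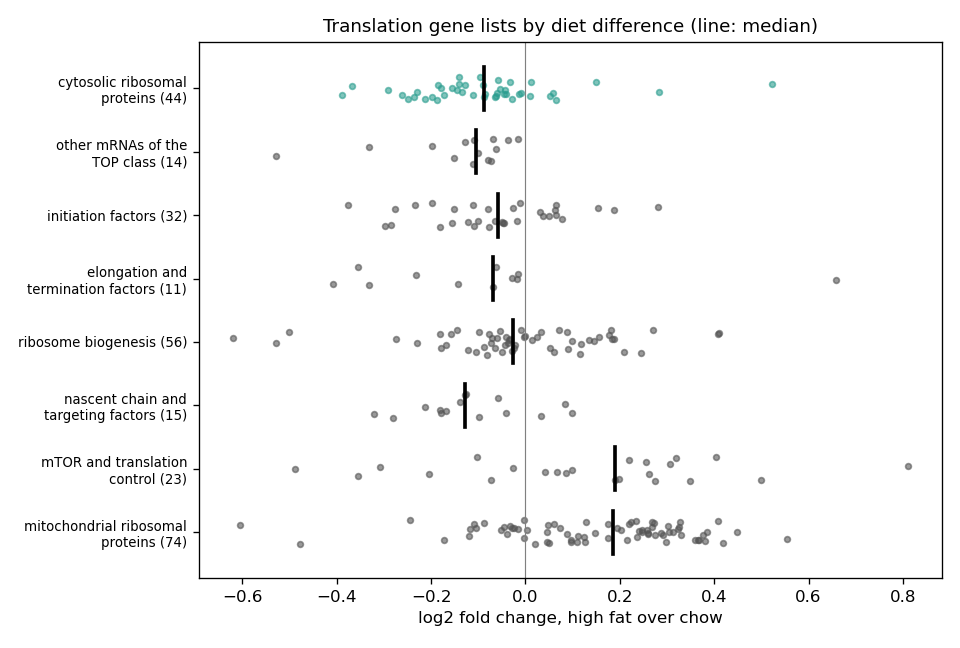
Each point is a gene, placed by its log2 fold change of high fat over chow, in 8 lists with the number of genes in brackets and the median as a black line. The cytosolic ribosomal proteins (median -0.09) and the other TOP mRNAs (-0.10) lie left of 0, and the mitochondrial ribosomal proteins (0.18) and the mTOR and translation control list (0.19) lie right of it.

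Mitochondrial ribosomal proteins, which form the separate ribosome of mitochondria, had higher means on high fat diet for 56 of 74 genes, with a median of 0.18. None passed the adjustment in limma, while 8 were higher (10.8%) and 1 lower (1.35%) at an unadjusted p under 0.05, where 4.28% and 2.7% of all 8326 genes were. Of the 74, 20 lay wholly above chow (27%, against 6.79% of all genes). Cytosolic ribosomal proteins had 0 at that p and 0 wholly above, with a median of -0.09. The difference between the families was not tested.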

How the data were processed

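The authors deposited linear signal intensities for each probe set on each array, and MAS5 was named in the submitters' processing notes, its version and settings not given in the sources used here. Labelled cRNA was made from 5 µg of RNA, per the labels' protocols. The 2% trimmed mean was 150.05 on every array, so this scaling was kept, and no detection calls were used. Genes were named from the platform annotation, and all 48 members matched the RefSeq table by gene ID.

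Of 22626 probe sets without controls, the 13575 whose mean log2(signal + 6) was above the 40th percentile entered a limma fit (version 3.58.1, R 4.3.3) with a trended variance. Its two-sided p-values were adjusted by Benjamini and Hochberg's method across all of them. Fold changes are on that scale and understate those of low genes. Intervals are 95% and cover 1 gene at a time. Tables and figures used Python 3.11.15, and the fit was tested on simulated data. The changes planted there were larger than that of any member, so the simulation does not show whether changes of the members' size would be found. The members, lists and tests were chosen with earlier results of these data known. Members named were the 6 of smallest p in each direction, the 5 of highest mean signal, stalk proteins, paralogs, textbook genes and those below the filter, and in each related list the 2 of smallest p. Any gene outside this rule that is named was picked with its values known. Alternatives covered the offset, filter, scaling, variance model, choice of probe set, replicate block and each array left out. Of the probe sets used for the 44 tested genes, 16 end in _x_at or _s_at and 15 in _a_at, which can bind related transcripts, pseudogenes included. The number of arrays limits the precision.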

Additional observations from a re-analysis of the deposited data

How the results depend on the processing

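The median log2 fold change of the ribosomal protein genes was negative in all 22 alternatives run, 18 planned and 4 added once the data had been seen. All of them reuse the same arrays, so they are not independent. The variance models and the replicate block leave every fold change as it is and could not move this median. It was lowest, at -0.14, in the further probe sets of members and highest, at -0.05, on probe sets with the plain suffix, and between -0.13 and -0.07 when single arrays were left out. No member passed the adjusted threshold in any fit. The count at an unadjusted p under 0.05 was 0 on all arrays, 1 with array weights (Rps27) and 1 with the replicate number as a block (Rpl22l1). It was 0 to 3 when single arrays were left out, with 3 without chow replicate 3 (Rpl7, Rpl22 and Rpl8), and 2 without high fat replicate 2 and chow replicate 1. Rps27 was higher on high fat diet in these fits, and Rpl22l1, Rpl7, Rpl22 and Rpl8 were lower. The share of all probe sets at that p was 7.03% on all arrays (limma) and was not counted in the other fits.

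Of 191 values of 12 members, the 6 of smallest p in each direction, 188 kept their direction and their side of the threshold. The 3 others changed sign: Rps3 without chow replicate 1 (-0.0358 to 0.1133 over single arrays left out), Rpl11 without high fat replicate 3 (-0.0935 to 0.1864) and Rpl39 without high fat replicate 2 (-0.0535 to 0.2037), and the cause was not tested. Part of the 188 was fixed in advance, since the filter, the variance models and the replicate block leave the fold change of a gene as it is. Adjusted p-values of the 12 members were at least 0.506 throughout (limma). Same-numbered pools did not deviate together (correlations of 0.034, 0.171 and -0.111 across probe sets), so the numbers were not taken as pairs. Without detection calls, a low signal has no known distance from background.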
